A study of Mus musculus with 10 samples.

Results

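The Piezo, acid-sensing and Tmc channel genes were followed in the trigeminal ganglion, the cranial ganglion whose neurons sense touch, pain and temperature in the head, from C57Bl6 mouse embryos at stage E13.5. The 10 genes (Piezo1, Piezo2, Asic1, Asic2, Asic3, Asic4, Tmc3, Tmc6, Tmc7 and Stoml3) were chosen with earlier results of these data known. All were found among the 55414 gene IDs counted, with 10 of 10 passing the filter on low counts. RNA was sequenced from 5 libraries of Prdm12-/- embryos (knockout 16, 29, 42, 49 and 50) and 5 of Prdm12+/+ embryos (wild-type 22, 24, 32, 35 and 45). All 10 libraries, controls included, also carried the label Sox10 Venus+, which names a fluorescent reporter of Sox10, a transcription factor of glia and neural crest. The labels name no cell sorting, do not say how the mutant allele or the reporter was built, and leave unsaid whether any libraries share an embryo. The p-values therefore measure the spread between libraries, which may be technical. The question was how these channel genes differed when Prdm12, a zinc finger gene needed to form nociceptors, was missing.

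Piezo1 and Piezo2 encode large channels that open when the cell membrane is stretched or indented. Piezo2 is the main touch and proprioception channel of sensory neurons, whereas Piezo1 serves vessels, blood cells and many other tissues. The Asic genes encode subunits of sodium channels opened by protons, with Asic3 the subunit best known from sensory neurons and Asic4 a subunit that does not form a proton-gated channel by itself. Tmc genes encode transmembrane channel-like proteins, of which the relatives Tmc1 and Tmc2 belong to the transduction channel of inner ear hair cells. The roles of Tmc3, Tmc6 and Tmc7 in sensory neurons are less settled. Stoml3 encodes a stomatin-like membrane protein of touch neurons that tunes Piezo and acid-sensing channels.

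Total counts per library ranged from 3258008 (knockout 49) and 13603690 (knockout 29) to 33556002 (knockout 16), so that 3 counts equalled 0.869 and 0.236 CPM in these shallow libraries and between 0.0889 and 0.107 CPM elsewhere. CPM are counts relative to the TMM-scaled library total (TMM adjusts totals for differences in RNA composition). Prdm12 itself fell from a wild-type mean of 182 ± 76.7 CPM (74.3 to 264) to 18.2 ± 14.1 CPM (8.74 to 42.7, highest in knockout 29; SD, n = 5 per genotype; log2 fold change -3.32, SE 0.49, edgeR adjusted p = 0.0156). The call was lost without wild-type 32 and 35 (log2 fold change -2.82, edgeR adjusted p = 0.110), without knockout 49 or 50 (edgeR adjusted p = 0.0561 and 0.0616), and without knockout 16 and wild-type 24 and 45 together (edgeR adjusted p = 0.0614). The labels do not say which exons the allele lacks, so the reads that remain cannot be placed. The summed level of 20 general neuronal genes was 9231 to 20199 CPM in the knockout and 11603 to 21839 CPM in the wild type. Of these genes 17 had a negative and 3 a positive log2 fold change (median -0.27). In edgeR 0 were called, while 4 were lower and 0 higher at an unadjusted p under 0.05. Wild-type 32 and 35 stood apart: their 10 mesenchyme markers summed to 920 and 1203 CPM against 4748 to 6432 CPM in the other wild-type libraries. Their 14 nociceptor markers, Prdm12 among them, summed to 3985 and 3715 CPM against 1560 to 2117 CPM. Differences that changed call or direction without these libraries are given with and without them.

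Of the 10 channel genes, 1 rose in the knockout (Tmc3), 0 fell, and 9 did not pass the threshold of 0.05 on the adjusted p of edgeR's quasi-likelihood test. At an unadjusted p under 0.05, Tmc3 was again the 1 higher gene and 0 were lower, beside 6.40% and 6.73% of all genes. At the same unadjusted p, DESeq2 had 4 members higher and 0 lower, beside 1819 and 1125 of its 39336 genes with a p-value. Limma voom had 3 members higher and 1 lower (Asic3), beside 2796 and 3124 of its 18005 genes. Over all 18005 genes tested, edgeR called 0.0944% higher and 0.372% lower. Tmc3 was also the 1 member of 10 whose knockout libraries all lay above the wild-type libraries, where 1.29% of all genes tested were separated upward, 2.92% downward and 4.21% in either direction. Because the members were chosen with earlier results of these data known, these counts beside all genes are a description. The log2 fold change (knockout over wild type) was above 0 for 7 members and below 0 for 3, with a median of 0.33, beside 8328 and 9677 genes and a median of -0.03 over all genes tested. In RNA pooled from many cells, sorted or not, fewer cells of a type and less RNA per cell cannot be told apart.

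**Figure D1:**
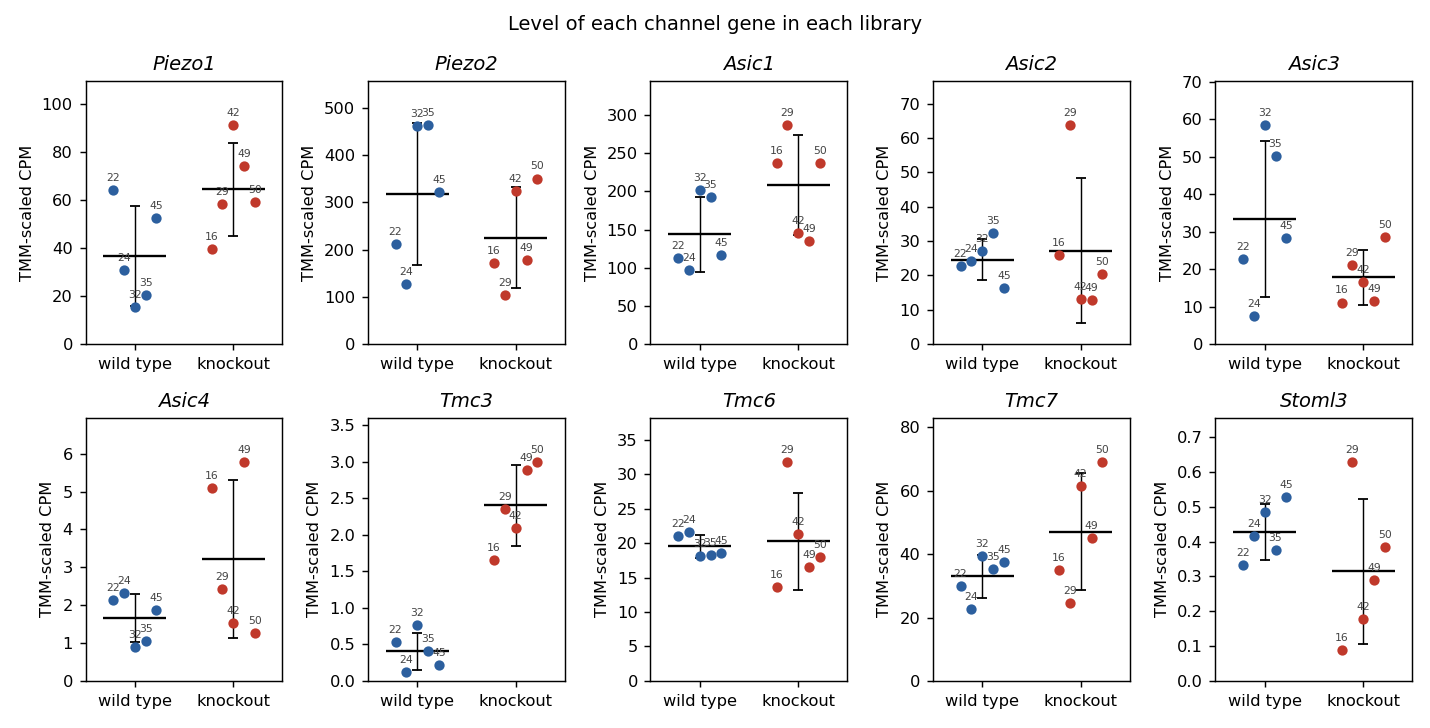
TMM-scaled CPM (vertical axis, from 0) of the 10 channel genes in each library; points are libraries labelled by number (blue wild type, red knockout), and bars are the mean and SD of 5 libraries. Tmc3 is the 1 panel in which the groups do not overlap; Piezo2 and Asic3 are highest in wild-type 32 and 35, and Asic2 in knockout 29.

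Tmc3 was the lowest of the Tmc members and the 1 that rose. Its level in knockout libraries 16, 29, 42, 49 and 50 was 1.66, 2.36, 2.10, 2.90 and 3.01 CPM, and in wild-type libraries 22, 24, 32, 35 and 45 it was 0.534, 0.128, 0.762, 0.410 and 0.211 CPM. Every knockout library was above every wild-type library, with knockout 16 the lowest of the knockouts. The means were 2.40 ± 0.560 and 0.409 ± 0.254 CPM (SD, n = 5 each), a 5.75-fold difference with a 95% interval of 2.96 to 11.2 (log2 fold change 2.52, SE 0.44, edgeR adjusted p = 0.0317). These levels rest on few reads, 241 counts in all knockout libraries together and 60 in the wild type, with 10 counts in knockout 49 and 4 in wild-type 24. The log2 fold change was between 2.23 and 3.07 in 19 alternative analyses, but the call was made in 10 of them. It was lost without knockout 42, 49 or 50 or wild-type 22, 35 or 45 (adjusted p 0.0637 to 0.119), and also without wild-type 32 and 35 together (adjusted p = 0.0802), without knockout 29 and 49 together, or without knockout 16 and wild-type 24 and 45 together (edgeR adjusted p = 0.124 and 0.0614). Markers of neuron classes moved with the genotype too. Of 13 tested nociceptor markers 6 fell, but 1 of these was Prdm12 itself, the targeted gene. The list, Prdm12 included, summed to 720 to 1043 CPM over the knockouts and 1560 to 3985 CPM over the controls. Of 14 mechanoreceptor and proprioceptor markers 1 rose and 2 fell, with sums of 1138 to 1447 and 794 to 1262 CPM. The part of these markers in the Tmc3 difference was not tested.

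**Figure D2:**
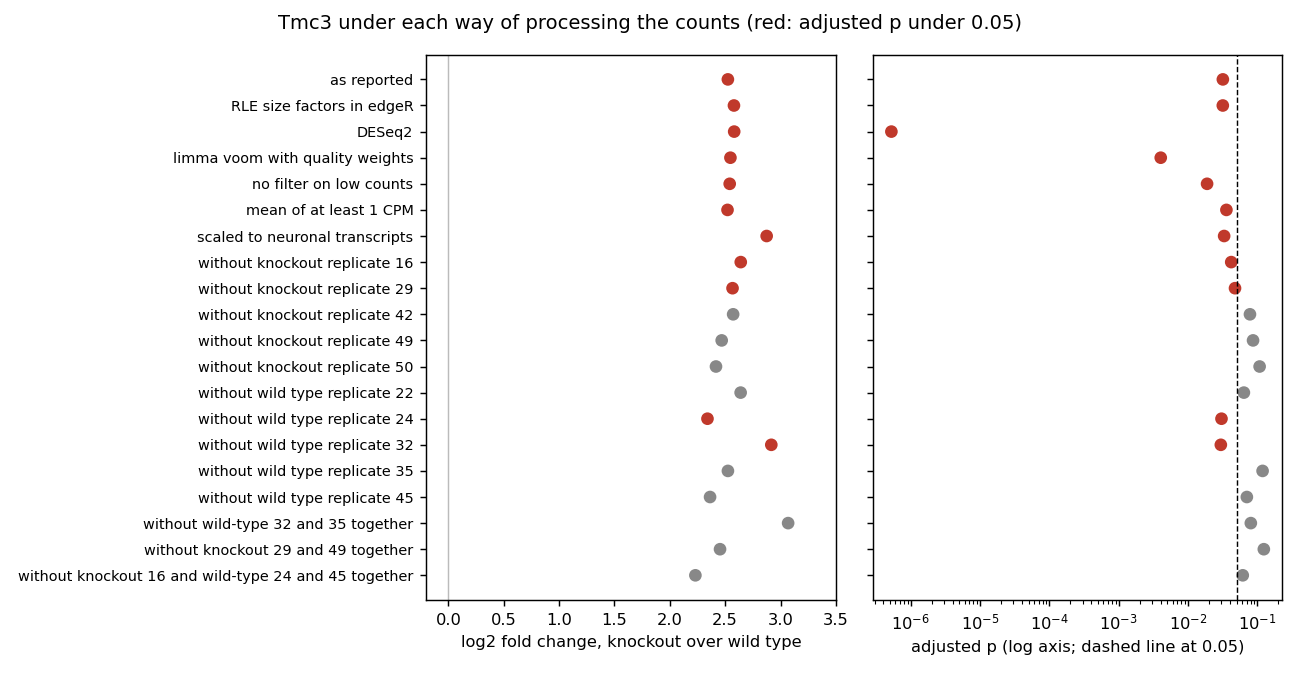
Tmc3 as reported and under 19 alternatives (rows): the left panel gives the log2 fold change of knockout over wild type and the right panel the edgeR, DESeq2 or limma adjusted p on a log axis with a dashed line at 0.05. All points of the left panel lie above 0, between 2.23 and 3.07, while 9 alternatives lie to the right of the dashed line.

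In the GENCODE M21 annotation (GRCm38), 43.9% of the exon bases of Tmc3 also belong to exons of Gm16638, an antisense RNA gene on the opposite strand. The sources used here do not give the strand setting of the counting, so reads of the shared bases may have gone to either gene or to none. Knockout libraries held Gm16638 at 4.56 to 8.07 CPM and wild-type libraries at 3.74 to 7.79 CPM. These ranges overlapped, and the log2 fold change of Gm16638 was 0.06 (edgeR adjusted p = 0.937). The nearest tested protein-coding genes in the RefSeq gene order, Mex3b upstream and Stard5 downstream, had log2 fold changes of 0.02 and 0.11 (edgeR adjusted p = 0.979 and 0.836).

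Because Tmc3 was the called member, the bases just before its gene start are shown. RefSeq promoter windows (GRCm38.p6) were matched for 8 of the 10 genes, and the Tmc3 window was cut to the 223 bases before the RefSeq gene start. Capitals mark CANNTG, the E-box letters that basic helix-loop-helix factors can bind, which read the same way on both strands.
Tmc3, chr7:83584681-83584903, plus strand, GRCm38.p6: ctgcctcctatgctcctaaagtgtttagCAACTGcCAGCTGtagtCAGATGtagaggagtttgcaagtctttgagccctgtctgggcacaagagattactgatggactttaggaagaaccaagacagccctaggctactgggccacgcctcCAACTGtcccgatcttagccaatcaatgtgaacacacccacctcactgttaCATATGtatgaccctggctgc
The window held 5 non-overlapping CANNTG matches. For comparison, 32851 windows of the same source were cut to their first 223 bases, wherever their own gene start lay. Of these, 62.5% held at least 1 match and 0.813% held 5 or more. On either strand, TAAT, the core of many homeodomain sites, occurred 1 time (52.7% of windows held it), and TGTGGT, the letters of a RUNX site, did not occur (12.9% held it). These are matches of letters in 1 window, and the motifs were picked as those of factor families of sensory neurons, with the expression results known.

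Tmc7 and Tmc6 were expressed at far higher levels than Tmc3. Tmc7 was at 35.1, 24.5, 61.5, 45.2 and 69.2 CPM in knockout 16, 29, 42, 49 and 50, and at 30.1, 22.6, 39.5, 35.4 and 37.6 CPM in wild-type 22, 24, 32, 35 and 45. Knockout 42, 49 and 50 lay above every wild-type library, while 16 and 29 lay within the wild-type range. Tmc7 had a log2 fold change of 0.51 (SE 0.27, 95% interval -0.07 to 1.10, edgeR adjusted p = 0.430), and of the alternatives limma voom alone called it (0.67, limma adjusted p = 0.0465).

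Tmc6, a gene for an endoplasmic reticulum protein whose human counterpart is tied to control of skin papillomavirus infection, showed the least difference of the 10 members. Knockout values ranged from 13.7 to 31.9 CPM (median 18.0) and wild-type values from 18.1 to 21.6 CPM (median 18.6). The knockout range enclosed the wild-type range, with the highest value in knockout 29. For Tmc6 the log2 fold change was 0.06 with a 95% interval of -0.41 to 0.52 (edgeR adjusted p = 0.928), which spans fold changes from 0.752 to 1.44, and it was -0.13 without knockout 29. Tmc6 shares 0.978% of its exon bases with Tmc8 on the opposite strand.

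Piezo2 was lower on average in the knockout, but the groups overlapped widely. It was at 171, 103, 323, 179 and 350 CPM in knockout 16, 29, 42, 49 and 50, and at 212, 127, 461, 464 and 322 CPM in wild-type 22, 24, 32, 35 and 45. Wild-type 32 and 35 were the highest of all libraries, and the other 3 wild-type libraries lay within the knockout range. The means were 225 ± 106 and 317 ± 150 CPM (SD, n = 5 each), with a log2 fold change of -0.49 (SE 0.40, 95% interval -1.37 to 0.38, edgeR adjusted p = 0.597). Without wild-type 32 and 35 it was 0.09 (edgeR adjusted p = 0.976), so the direction of the Piezo2 difference rested on these libraries. With libraries scaled to the general neuronal genes, the log2 fold change of Piezo2 was -0.02 (edgeR adjusted p = 0.992), beside a median of 0.24 over all genes.

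Piezo1 leaned the other way. It was at 39.4, 58.2, 91.2, 74.1 and 59.3 CPM in knockout 16, 29, 42, 49 and 50, and at 64.3, 31.0, 15.4, 20.4 and 52.4 CPM in wild-type 22, 24, 32, 35 and 45. Wild-type 32 and 35 held the lowest values of all libraries, whereas wild-type 22 lay above 3 of the 5 knockout libraries. Its log2 fold change was 0.81 (SE 0.37, 95% interval -0.0065 to 1.63, edgeR adjusted p = 0.383), and 0.44 without wild-type 32 and 35 (edgeR adjusted p = 0.815). In the same annotation 24.6% of the exon bases of Piezo1 overlap Ctu2 on the opposite strand, a gene whose knockout mean of 30.4 ± 8.77 CPM lay beside a wild-type mean of 28.6 ± 2.41 CPM (SD, n = 5 per genotype; log2 fold change 0.09, edgeR adjusted p = 0.860).

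Some lists of non-neuronal markers, though not all, leaned the same way as Piezo1. The summed level of 10 endothelial markers, among them Cdh5 and Kdr, spanned 493 to 1197 CPM over the knockouts and 265 to 611 CPM over the controls, and all 10 had a positive log2 fold change, although 0 passed the edgeR threshold (9 at an unadjusted p under 0.05). The lowest endothelial sum, 265 CPM, and the lowest Piezo1 value were both in wild-type 32. The highest Piezo1 value, in knockout 42, came with an endothelial sum of 1098 CPM and the highest mesenchyme sum, 11186 CPM. The orders did not match throughout: the highest endothelial sum, 1197 CPM, was in knockout 50, where Piezo1 at 59.3 CPM was below wild-type 22 at 64.3 CPM. All 10 macrophage markers also had a positive log2 fold change with 0 called, and their sum was 193 to 376 CPM over the knockouts, 54.8 and 64.0 CPM in wild-type 32 and 35, and 163 to 318 CPM in the other controls. No endothelial marker was at 0 in any library. The 8 erythroid and 6 epithelial markers tested all had a positive log2 fold change too, with 0 called. Glial and mesenchyme markers were mixed, with 6 positive and 4 negative in each list, and muscle markers were negative for 7 of 8 genes. The part of these markers in the Piezo1 values was not tested.

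The ratio of Piezo2 to Piezo1 counts within a library does not depend on how libraries are scaled. It was 1.78 to 5.91 in the knockout (median 3.55), and 3.30, 4.10, 6.15, 22.7 and 29.9 in wild-type 22, 24, 45, 35 and 32. The groups overlapped, and the 2 high ratios were those of wild-type 35 and 32. The ratio of Tmc7 to Piezo2 counts was 0.190 to 0.253 in the knockout and 0.0763 to 0.178 in the wild type, with no overlap. The other ratios compared did overlap between knockout and wild type. They were Asic1 to Asic2 (4.50 to 11.6 and 3.97 to 7.39), Asic1 to Asic3 (8.28 to 21.3 and 3.44 to 12.8) and Tmc7 to Tmc6 (0.768 to 3.84 and 1.05 to 2.18). These ratios were chosen after the counts were seen and carry no test.

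**Figure D3:**
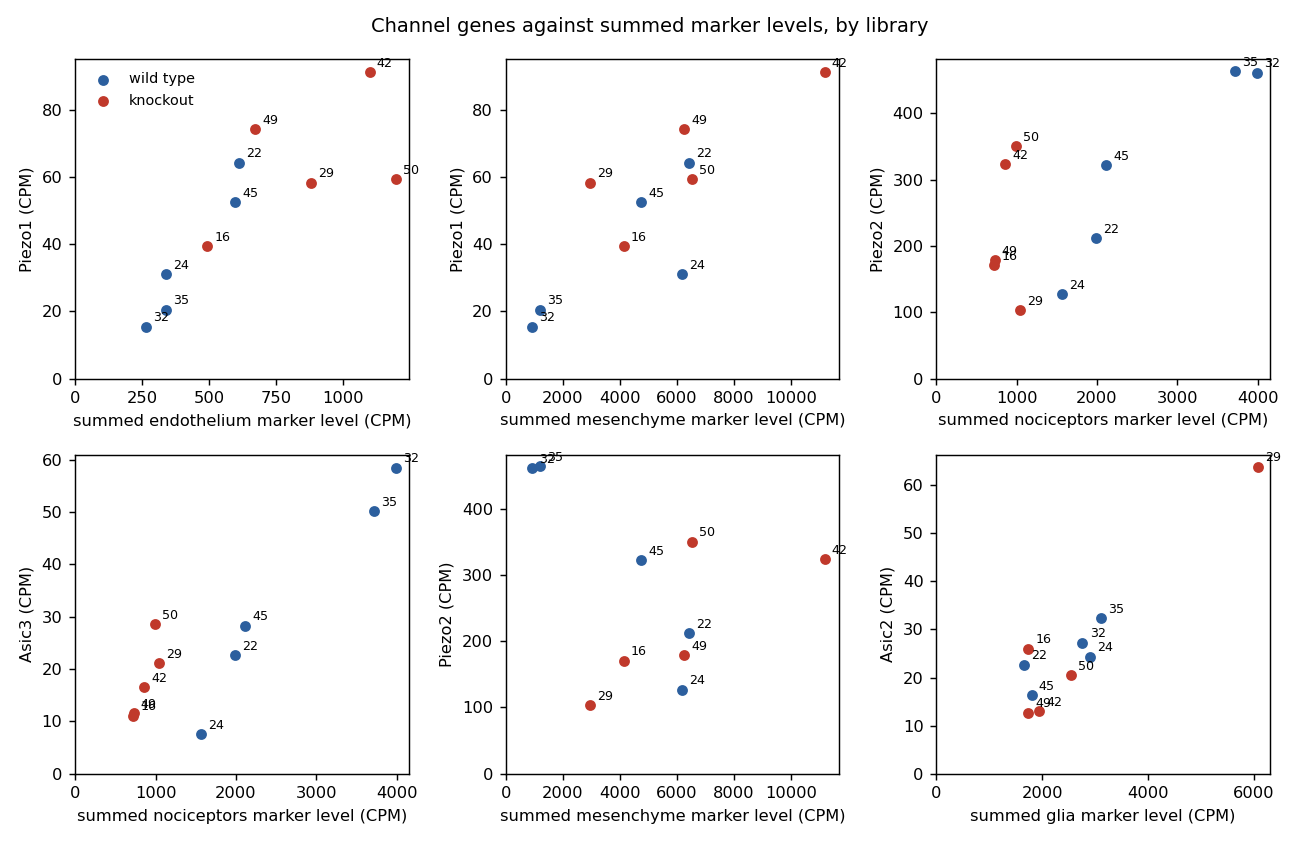
Level of Piezo1, Piezo2, Asic3 and Asic2 (vertical axes, CPM) against the summed level of a list of cell type markers (horizontal axes, CPM); each point is 1 library, labelled by number, blue for wild type and red for knockout. Wild-type 32 and 35 lie at the low end of the endothelial and mesenchyme sums with the lowest Piezo1 and the highest Piezo2, and knockout 29 has both the highest glial sum and the highest Asic2.

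Among the acid-sensing channel genes, Asic1 was the most abundant in every library. It was at 237, 287, 145, 135 and 237 CPM in knockout 16, 29, 42, 49 and 50, and at 112, 96.6, 201, 192 and 117 CPM in wild-type 22, 24, 32, 35 and 45. Knockout 16, 29 and 50 lay above all wild-type libraries, and knockout 42 and 49 lay between the 3 low and the 2 high wild-type values. The log2 fold change was 0.53 (SE 0.27, 95% interval -0.05 to 1.12, edgeR adjusted p = 0.415), and 0.99 without wild-type 32 and 35 (edgeR adjusted p = 0.388). With libraries scaled to the general neuronal genes it was 0.80 (edgeR adjusted p = 0.202), beside a median of 0.24 over all genes.

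Asic3 was at 11.1, 21.1, 16.5, 11.6 and 28.6 CPM in knockout 16, 29, 42, 49 and 50, and at 22.7, 7.54, 58.4, 50.2 and 28.3 CPM in wild-type 22, 24, 32, 35 and 45. Wild-type 32 and 35 were again the highest, but the lowest value of all was in wild-type 24. The means were 17.8 ± 7.28 and 33.4 ± 20.7 CPM (SD, n = 5 each), with a log2 fold change of -0.90 (SE 0.47, 95% interval -1.92 to 0.12, edgeR adjusted p = 0.428). Without wild-type 32 and 35 it was -0.06 (edgeR adjusted p = 0.985). Among wild-type libraries the summed nociceptor markers were highest in 32 and 35 and lowest, at 1560 CPM, in 24, in the same libraries as the extremes of Asic3, and the part of these markers was not tested.

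Asic2, the subunit that joins Asic1 or Asic3 in mixed channels, stood out in 1 library. It was at 26.0, 63.8, 13.1, 12.7 and 20.5 CPM in knockout 16, 29, 42, 49 and 50, and at 16.4 to 32.4 CPM in the wild type (median 24.3). Knockout 29 lay above every wild-type library, knockout 42 and 49 below every one, and knockout 16 and 50 within their range. The log2 fold change was 0.15 (SE 0.41, 95% interval -0.74 to 1.04, edgeR adjusted p = 0.894) and -0.40 without knockout 29 (edgeR adjusted p = 0.547). Knockout 29 also had the highest summed level of the 10 glial markers, 6079 CPM against 1737 to 2547 CPM in the other knockouts and 1660 to 3110 CPM in the wild type. Of these 6079 CPM, Sox10 alone, the gene named by the reporter label, made up 3764 CPM. In knockout 29 the sum of 8 erythroid markers, 3361 CPM, was the highest of all libraries (next 1867 CPM). The general neuronal sum of knockout 29, 20199 CPM, was the highest of the knockouts (next 15734 CPM). The part of these markers in the Asic2 value was not tested. Counts per gene do not separate the splice forms of Asic1 or Asic2.

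Asic4 was the scarcest of Asic1 to Asic4. It was at 5.10, 2.44, 1.53, 5.79 and 1.26 CPM in knockout 16, 29, 42, 49 and 50, and at 0.901 to 2.33 CPM in the wild type (median 1.87). Knockout 16 and 49 were far above the rest, and knockout 42 and 50 lay within the wild-type range, with knockout 29 just above it. The value of knockout 49 rests on 20 counts. Asic4 had a log2 fold change of 0.90 (SE 0.47, 95% interval -0.13 to 1.93, edgeR adjusted p = 0.433). The 10 central nervous system markers summed to 183 CPM in knockout 16 and 40.5 CPM in knockout 49, against 2.77 to 26.5 CPM in the other knockouts and 2.12 to 39.99 CPM in the controls, and the 8 epithelial markers summed to 354 CPM in knockout 49 against at most 81.8 CPM in any other library. The part of these markers in the Asic4 values was not tested. In that annotation 18.1% of the exon bases of Asic4 overlap Gm37264, a transcript on the opposite strand with means of 0.523 CPM (knockout) and 0.338 CPM (wild type).

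The make-up of the acid-sensing transcripts was compared within each library, as each gene's share of Asic1 to Asic4 counts per kilobase of exon. Asic1 made up 76.7, 67.1, 70.8, 70.4 and 70.7% in knockout 16, 29, 42, 49 and 50, and 55.9, 63.5, 53.2, 53.8 and 55.8% in wild-type 22, 24, 32, 35 and 45. The lowest knockout share was above the highest wild-type share. Asic3 made up 8.52 to 20.2% in the knockout (median 14.3%) and 11.7 to 36.6% in the wild type (median 31.9%), and the groups overlapped through wild-type 24 alone. Asic2 made up 8.24 to 20.1% and 9.69 to 21.5%, and Asic4 0.791 to 6.35% and 0.501 to 3.23%. These shares were chosen after the counts were seen and are given as a description, with no test.

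**Figure D4:**
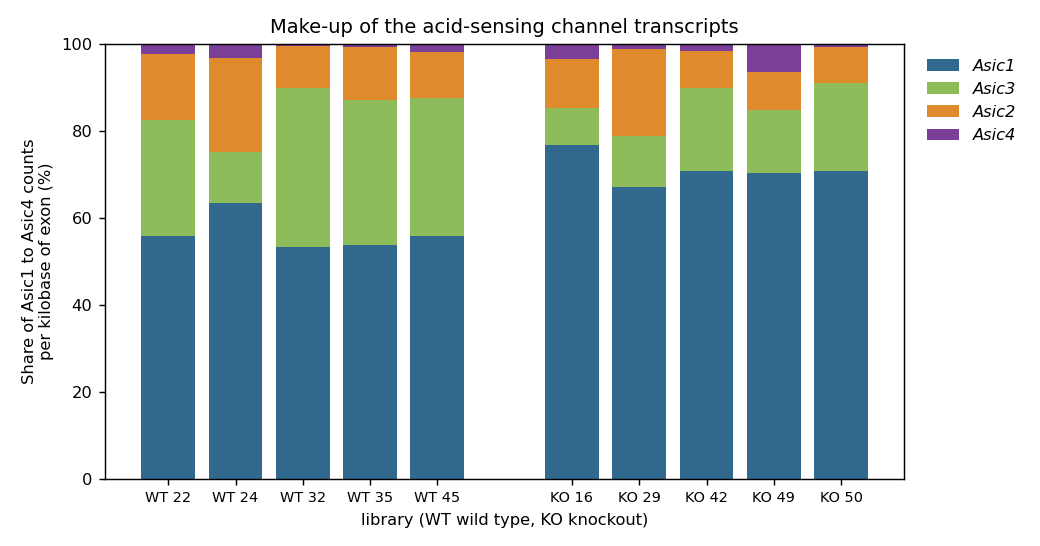
Share of Asic1, Asic2, Asic3 and Asic4 in their joint counts per kilobase of exon (vertical axis, percent) in each library (horizontal axis, WT wild type and KO knockout with library number). The Asic1 segment reaches 67.1 to 76.7% in the knockout libraries and 53.2 to 63.5% in the wild-type libraries.

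Stoml3 was close to the limit of detection. The knockout libraries 16, 29, 42, 49 and 50 held 3, 8, 5, 1 and 11 counts, and wild-type 22, 24, 32, 35 and 45 held 10, 13, 14, 11 and 15. In CPM this was 0.0889 to 0.629 in the knockout and 0.334 to 0.528 in the wild type, so the knockout range enclosed the wild-type range. Stoml3 had a log2 fold change of -0.54 (SE 0.47, 95% interval -1.56 to 0.48, edgeR adjusted p = 0.622). Knockout 16, the deepest library, held 3 counts and knockout 49, the shallowest, 1 count.

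Levels of different genes were compared per kilobase of exon (CPM divided by the joined exon length in GENCODE M21, which counts every annotated transcript). These lengths include bases shared with opposite-strand genes (43.9% of Tmc3, 24.6% of Piezo1, 18.1% of Asic4 and 0.978% of Tmc6). Reads there may have gone to either gene or to none, so the places of these genes in the order may be misstated. In the wild type the order was Asic1 (25.1 ± 8.52), Piezo2 (18.5 ± 8.71), Asic3 (13.8 ± 8.56), Asic2 (5.77 ± 1.38), Tmc7 (5.73 ± 1.18), Tmc6 (4.78 ± 0.416), Piezo1 (3.69 ± 2.11), Asic4 (0.608 ± 0.236), Stoml3 (0.199 ± 0.0368) and Tmc3 (0.0453 ± 0.0282 CPM per kilobase; SD, n = 5). Neighbours from Asic1 down to Piezo1 in this order differed by less than the larger of their SDs, while the steps from Piezo1 to Asic4, to Stoml3 and to Tmc3 were larger than that. In the knockout Asic1 (36.3 ± 11.4) and Piezo2 (13.1 ± 6.19) again led, Tmc7 (8.17 ± 3.19) and Asic3 (7.34 ± 3.01) came next, and Tmc3 (0.266 ± 0.0620) stood above Stoml3 (0.146 ± 0.0971 CPM per kilobase; SD, n = 5).

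Related genes were followed in 7 lists of channel relatives and partners, of which 35 of 44 genes were tested. Of these, 0 rose, 1 fell (Trpv1) and 34 did not pass, beside 0.0944% called higher and 0.372% lower over all genes tested. At an unadjusted p under 0.05 in edgeR, 4 were higher and 3 lower, beside 6.40% and 6.73% of all genes. The groups did not overlap for 2 higher and 2 lower genes, beside 1.29% and 2.92% of all genes. Trpv1, the capsaicin, heat and acid receptor of nociceptors and also a member of the nociceptor list, fell from 30.5 ± 22.6 to 1.34 ± 0.357 CPM (SD, n = 5 each; log2 fold change -4.56, SE 0.56, edgeR adjusted p = 0.00410), and wild-type 22 at 10.04 CPM, the lowest control, was still above knockout 49 at 1.74 CPM, the highest knockout. Trpv1 was called in 18 of 19 alternatives: the call was lost without knockout 29 and 49 together (edgeR adjusted p = 0.0573), and without wild-type 32 and 35 the log2 fold change was -3.62 (edgeR adjusted p = 0.0112). The median log2 fold change of the 35 genes was 0.02, beside -0.03 over all genes tested.

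Of the other Tmc genes, 3 of 5 were tested and 0 passed, and Tmc1 and Tmc2, the hair cell members, were below the filter with at most 11 and 4 counts in a library. Tmc4 was at 13.3 ± 8.89 and 9.47 ± 3.999 CPM in knockout and wild type, and Tmc8 at 2.19 ± 1.04 and 1.52 ± 0.338 CPM (SD, n = 5 each). The log2 fold change of Tmc4 was 0.45 (edgeR adjusted p = 0.653), and -0.0050 without knockout 49. Among the genes listed as partners of Tmc proteins 0 of 6 tested genes passed. Pcdh15, the protocadherin of the tip link that pulls on the hair cell channel, was nearest to the threshold. It was at 13.0, 3.78, 6.08, 12.2 and 10.1 CPM in knockout 16, 29, 42, 49 and 50, and at 36.6, 13.8, 53.5, 50.6 and 23.3 CPM in wild-type 22, 24, 32, 35 and 45. The groups did not overlap, though knockout 16 and wild-type 24 nearly met. Pcdh15 had a log2 fold change of -1.99 (SE 0.42, edgeR adjusted p = 0.0713), with adjusted p under 0.05 in 4 of 19 alternatives, DESeq2 (0.000457) and limma voom (0.00894) among them. Without wild-type 32 and 35 the log2 fold change was -1.40 (edgeR adjusted p = 0.447). Cib1, a calcium-binding protein gene, was at 19.9 ± 7.23 and 17.6 ± 4.94 CPM (SD, n = 5 each).

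In the stomatin family 0 of 4 tested genes passed, and Stoml1 (68.1 ± 11.7 and 74.4 ± 12.2 CPM in knockout and wild type) and Stoml2 (53.1 ± 5.68 and 58.8 ± 12.1 CPM; SD, n = 5) were far above Stoml3 in both genotypes. Per kilobase of exon, Stoml1 stood at 22.01 and 24.07 CPM against 0.146 and 0.199 CPM for Stoml3. Of 4 epithelial sodium channel and Asic5 genes, relatives of the Asic family, Scnn1a was the 1 tested and did not pass (2.66 ± 0.994 and 1.90 ± 0.417 CPM; SD, n = 5). Asic5 had at most 1 count in a library.

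Regulators of Piezo and acid-sensing channels had 0 of 6 genes called. Atp2a2, the calcium pump of the endoplasmic reticulum, was at 325 ± 23.9 and 326 ± 64.3 CPM, and Pick1, a scaffold protein that binds Asic subunits, at 704 ± 328 and 769 ± 312 CPM (SD, n = 5 each). Of 9 other genes listed as known or proposed mechanosensitive channels 0 passed. Tmem63b, an osmosensitive channel gene, was at 185 ± 84.8 and 169 ± 48.8 CPM and Tmem120a at 40.7 ± 13.9 and 39.0 ± 6.82 CPM (SD, n = 5 each). Kcnk2, the stretch-sensitive potassium channel TREK-1, and its relative Kcnk4 were chosen after their values were seen: Kcnk2 was at 29.7 ± 15.4 and 14.3 ± 5.68 CPM and Kcnk4 at 1.73 ± 0.764 and 4.50 ± 2.89 CPM (SD, n = 5 each; edgeR adjusted p = 0.258 and 0.270).

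Among other proton-sensing genes 6 of 9 were tested, and Trpv1 was the 1 called. Kcnk9, an acid-inhibited potassium channel gene, was at 72.5, 13.53, 27.3, 26.1 and 46.6 CPM in knockout 16, 29, 42, 49 and 50, and at 2.27, 7.10, 1.21, 0.751 and 9.37 CPM in wild-type 22, 24, 32, 35 and 45. All knockout libraries were above all wild-type libraries, but the log2 fold change of 3.17 (SE 0.70) had an edgeR adjusted p of 0.0827. Kcnk9 was called in 4 of 19 alternatives, DESeq2 (5.27e-05) and limma voom (0.00502) among them. Its highest value was in knockout 16, which also had the highest sum of central nervous system markers, 183 CPM. The part of these markers was not tested. Without knockout 16 alone, the log2 fold change of Kcnk9 was 2.78 (edgeR adjusted p = 0.120). Without knockout 16 and wild-type 24 and 45 together, it was 4.39 (edgeR adjusted p = 0.0383). That setting also left out the highest wild-type values, 7.10 and 9.37 CPM. Gpr4, a proton-sensing receptor of vessels chosen after its values were seen, was likewise higher in every knockout library, at 5.92 ± 1.09 against 2.74 ± 0.800 CPM (SD, n = 5 each; edgeR adjusted p = 0.107), beside the endothelial sums given above.

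**Figure D5:**
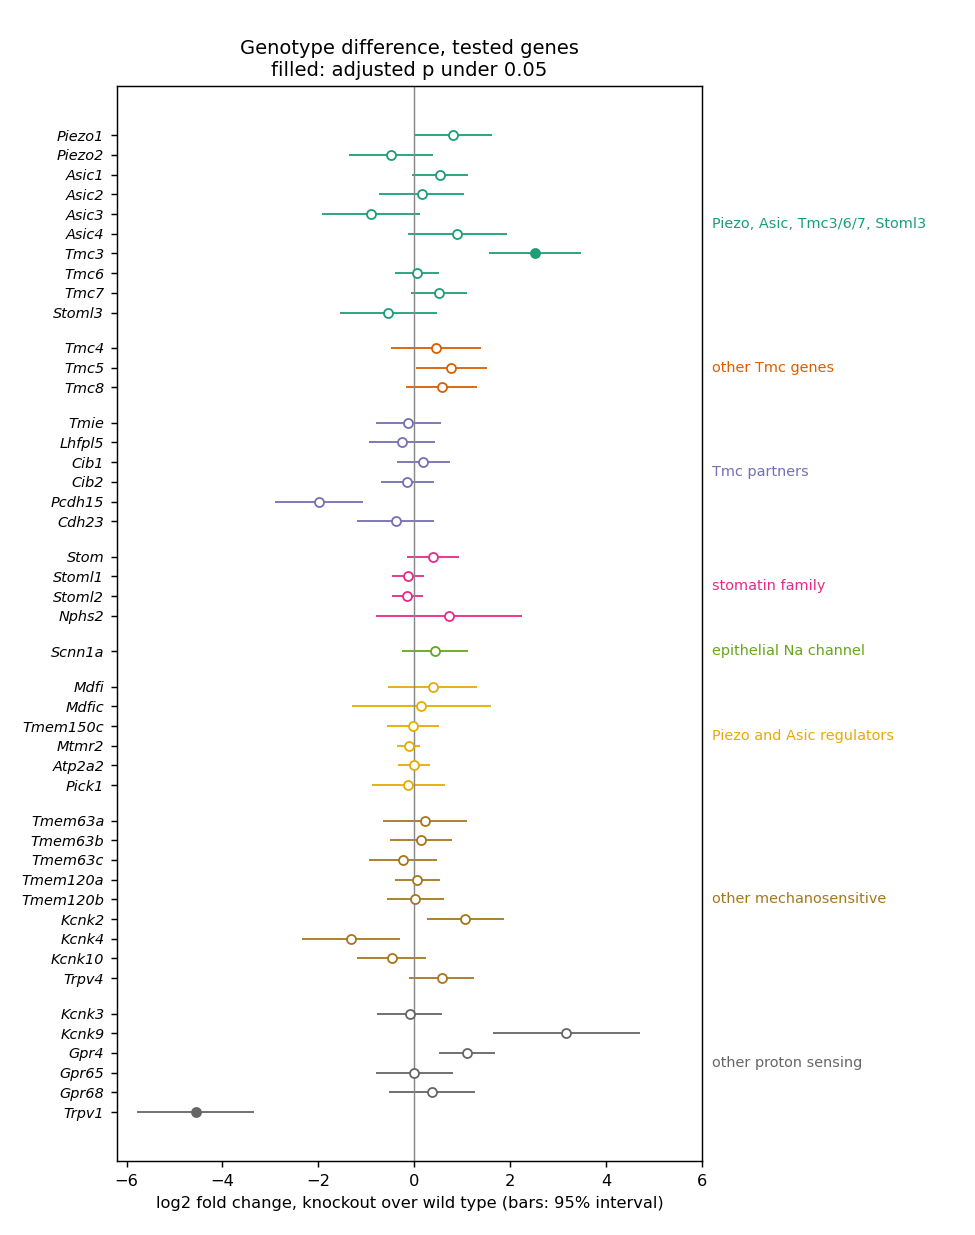
Log2 fold change of knockout over wild type (horizontal axis) with its 95% interval for the 10 channel genes and the 35 tested relatives and partners (rows, coloured by list); filled points have an edgeR adjusted p under 0.05. Tmc3 and Trpv1 are the filled points, to the right and the left of 0, and the intervals of the other 9 channel genes include 0.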

How the data were processed

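RNA sequencing counts of trigeminal ganglia from 5 Prdm12 knockout and 5 wild-type libraries were analysed. The deposited files hold raw counts per Ensembl gene, 1 file per library. Per the submitters' processing notes, the tools were STAR 2.7.10a, featureCounts 1.5.0-p1 and bcl2fastq 2.20.0.422, and 2 builds, GRCm39 and mm10, are named without their role. Strandedness, annotation version and handling of multimapping reads were not stated there.

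Symbols matched 52081 of 55414 IDs; Pacc1 was the 1 listed gene without a match. Genes were kept with filterByExpr (minimum count 10), scaled with TMM and compared between genotypes with edgeR's quasi-likelihood test, Benjamini-Hochberg adjusted over all 18005 genes kept (threshold 0.05). Fold changes (log2) put knockout over wild type, with SE and 95% intervals from the same fit. All 10 libraries entered the fit with genotype as the 1 term. Intervals cover the spread between libraries. The scripts were tested on simulated data.

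The channel genes and lists were chosen with earlier results of these data known. All channel genes were named, with every called gene and the 2 most abundant genes of each list of relatives. Alternatives were RLE factors, DESeq2, limma voom, 2 other filters, scaling to neuronal transcripts and leaving out libraries. No library repeated another (chi-square of counts at least 9.88 per gene in every pair within a genotype). DESeq2 was version 1.42.0, limma 3.58.1 and edgeR 4.0.16, all run in R 4.3.3.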

Additional observations from a re-analysis of the deposited data

Results flagged for a closer look

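Within each genotype, the level of every channel gene, 5 ratios and the 4 acid-sensing shares were checked for a library far from the other 4, in 38 groups in all, of which chance alone marks about 1 in 20. In knockout 29, Asic2 was at 63.8 CPM where the next knockout library was at 26.0 CPM, and Asic2 made up 20.1% of the acid-sensing counts per kilobase where the next was at 11.3%. In wild-type 24, the ratio of Asic1 to Asic3 counts was 12.8 where the next wild-type library was at 4.95, and Asic1 made up 63.5% of the acid-sensing counts per kilobase where the next was at 55.9%.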

How the results depend on the processing

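Knockout 49 was the shallowest library, and Tmc3 and Stoml3 rest on few reads. Tmc3 kept its direction in 19 of 19 alternatives and its call in 10. Over all alternatives, 172 of 189 values for the 10 channel genes kept direction and side of the threshold, 9 lost a call, 1 gained one and 7 changed sign; Stoml3 could not be fitted with a mean of at least 1 CPM. Prdm12 was called in 15 of 19 and Trpv1 in 18 of 19. No paired analysis was possible because no replicate number occurs in both genotypes. The cause of the changes below was not tested.

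The number of channel genes called higher (1) was 2 with limma voom, 0 to 1 with 1 library left out, and 0 without wild-type 32 and 35, without knockout 29 and 49, and without knockout 16 and wild-type 24 and 45. The number called lower was 0 throughout. Of all genes, 17 were called higher and 67 lower; this was 354 and 248 with DESeq2, 1264 and 1080 with limma voom, 55 and 102 with no filter, 7 and 38 scaled to neuronal transcripts, 0 and 19 without wild-type 32 and 35 (731 higher at an unadjusted p under 0.05), and 7 and 26 without knockout 16 and wild-type 24 and 45. Without knockout 29 and 49, 6 were higher. With 1 library left out, 2 to 35 were higher and 27 to 88 lower. The median log2 fold change of all genes was -0.03, 0.24 scaled to neuronal transcripts and 0.16 with DESeq2.

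Some log2 fold changes, none of them called, changed sign. Limma voom gave Asic2 -0.44, Tmc6 -0.038, Tmem63b -0.34 and Tmem120a -0.079, and Atp2a2 was 0.043 with RLE factors and 0.035 with DESeq2. Scaling to neuronal transcripts gave Stoml1 0.15, Stoml2 0.10, Pick1 0.18 and Atp2a2 0.34. Without wild-type 32 and 35, Piezo2 was 0.088, Stoml1 0.11, Pick1 0.31 and Atp2a2 0.26. Without knockout 29 and 49, Asic2 was -0.31, Tmc6 -0.14, Cib1 -0.0031, Atp2a2 0.033, Tmem63b -0.10 and Tmem120a -0.085. Without knockout 16 and wild-type 24 and 45, Stoml2 was 0.034 and Tmem63b -0.010. With 1 library left out, the ranges were -0.40 to 0.33 for Asic2, -0.13 to 0.17 for Tmc6, -0.0050 to 0.67 for Tmc4, -0.028 to 0.42 for Cib1, -0.21 to 0.029 for Stoml2, -0.40 to 0.12 for Pick1, -0.049 to 0.10 for Atp2a2, -0.14 to 0.27 for Tmem63b and -0.13 to 0.21 for Tmem120a.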
